A study of Homo sapiens with 12 samples.

Results

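The genes described here were 29 genes of cholesterol synthesis, sterol transport and the SREBP2 system, of 25733 genes in the deposited expression table of HCT116 cells. They were taken by gene symbol from a list ordered along the pathway from acetyl-CoA to cholesterol: 20 enzymes of synthesis, 2 sterol transport proteins, SREBP2 with 5 of its regulators, and 1 esterifying enzyme. The list was chosen with earlier results of these data known, so counts set beside all genes are a description and no test of the list. All 29 were found in the table. FPKM are fragments per kilobase of exon, scaled to a total for each library. All 29 had a mean of at least 1 FPKM over the 12 libraries, the filter that left 12341 genes for testing.

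RNA sequencing was carried out on HCT116, a human colon cancer cell line, in 4 groups of 3 libraries each. Control cells received no treatment, and the NH4Cl group received 10 mM ammonium chloride for 24 h. The TGF-β group was given vehicle for 23 h and then 200 pM of the cytokine for 1 h, whereas the NH4Cl plus TGF-β group was given 10 mM NH4Cl for the 23 h before the same 1 h of cytokine. Reads assigned to genes numbered from 14807630 to 18191998 per library, with a median of 15484798. A single cell line was used, with a single dose of each agent, 1 time of TGF-β, and NH4Cl for 24 h alone or 23 h before TGF-β. The independence of the 3 libraries of a group is not stated, so the p-values measure only the spread between these libraries. In fits with the replicate number as a block, described below, that spread is what remains after differences between the numbers are removed.

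Cells build cholesterol from acetyl-CoA through mevalonate, isoprenoid pyrophosphates, squalene and lanosterol, and the same route supplies prenyl groups for proteins, dolichol and ubiquinone. SREBP2, a transcription factor made as a membrane-bound precursor, is held in the endoplasmic reticulum with its escort SCAP by INSIG proteins when membrane sterol is plentiful. When sterol is scarce, SCAP carries the precursor to the Golgi, site-1 and site-2 proteases release its active domain, and genes of synthesis, INSIG1 and SREBF2 itself are transcribed.

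The replicate 3 libraries stood apart from the others in all 4 groups. Their share of reads on mitochondrially encoded genes was 3.74% to 4.28%, against 2.18% to 2.85% in the 8 libraries of replicates 1 and 2, and their FPKM values summed to between 301728 and 305984, against 262958 to 278920. The total implied by the FPKM values was 0.964 to 0.969 of the reads on genes in replicate 3. In replicates 1 and 2 it was 1.017 to 1.032, so the FPKM scale itself differed with the replicate number. Among the 29 genes, 16 were higher in replicate 3 than the mean of replicates 1 and 2 in all 4 groups and 7 were lower in all 4. STARD4, INSIG1 and INSIG2 were more than 0.5 log2 units higher in replicate 3 in every group. The median size of the shift over the 29 genes was 0.187 log2 units in control, 0.169 in TGF-β, 0.183 in NH4Cl and 0.231 in doubly treated cells, beside 0.170, 0.185, 0.161 and 0.186 over all genes tested in the same order, as the plot of replicate 3 against the others shows gene by gene. Because this shift ran with the replicate number, differences are given from limma fits both without and with the replicate number as a block, and also without replicate 3. The numbers 1 and 2 were not told apart by this shift: after group means were removed, replicate 1 of a group correlated with replicate 2 of another at r from 0.341 to 0.486, beside 0.349 to 0.533 for same-number pairs of replicates 1 and 2. The same-number ratios given below rest on the library titles for these numbers. What the mitochondrial share had to do with the differences was not tested.

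**Figure D1:**
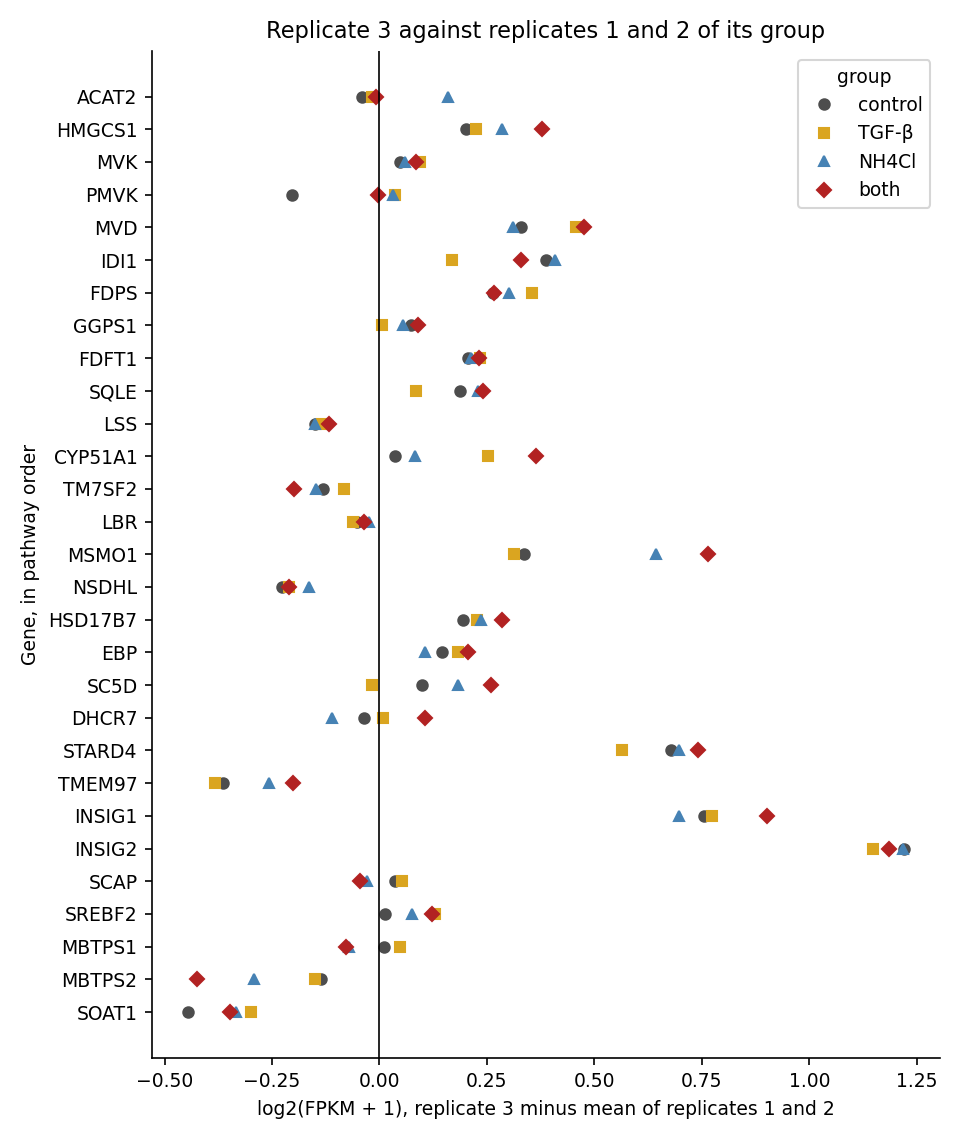
Difference between replicate 3 and the mean of replicates 1 and 2 for each of the 29 genes (log2 FPKM + 1), by group ("both" is NH4Cl plus TGF-β). STARD4, INSIG1 and INSIG2 lie more than 0.5 above 0 in all 4 groups.

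The cells expressed all 7 listed markers of colon epithelium, which summed to 2271 to 3417 FPKM per library, with KRT18 the most abundant at a mean of 876 FPKM. Of 5 fibroblast markers, 2 reached a mean of 1 FPKM, and the list summed to 8.01 to 11.2 FPKM, most of it from LUM at 7.79 FPKM. Leukocyte markers summed to 0.552 to 2.19 FPKM over the 3 found, with LYZ the highest at 1.12 FPKM. Endothelial markers summed to 1.56 to 6.84 FPKM over 3, with VWF the highest at 3.01 FPKM. Some of these sums differed with NH4Cl: in same-number pairs the endothelial sum was higher in 3 of 3 (1.72, 1.93 and 4.17 FPKM in control cells, 2.70, 2.99 and 5.86 FPKM with NH4Cl), the fibroblast sum was higher in 3 of 3 and the colon epithelium sum was lower in 3 of 3. Nearly all of the endothelial sum was VWF, and CDH5 of the same list was lower in 2 of 3 pairs. The colon epithelium sum was mostly KRT8, KRT18 and KRT19, which were lower in 3 of 3 pairs, as was CDH1. EPCAM and VIL1 of that list were higher in 3 of 3, and CDH17 in 2 of 3. What these sums had to do with the sterol genes was not tested.

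Most listed enzymes of the cholesterol pathway, from the first thiolase to the last steps, were higher in cells given NH4Cl. The genes encoding SREBP2, SCAP and the site-1 and site-2 proteases did not pass the test. In NH4Cl against control, 19 of 29 genes rose and 0 fell in the limma fit with the replicate block, against 7.42% of all genes tested that rose and 6.14% that fell. Without the block 3 of 29 passed an adjusted p of 0.05 (ACAT2, GGPS1 and DHCR7), all higher, against 0.381% of all genes in either direction. Without replicate 3 and without the block, 15 of 29 passed, all higher, beside 5.53% of all genes tested that were higher. The count of 3 fell to 0 or 1 when any of 10 libraries was left out, the exceptions being the replicate 3 libraries of TGF-β and of NH4Cl plus TGF-β. With the block, leaving out 1 library gave 13 to 19 genes, the 13 without control replicate 3. Here a gene is said to have risen or fallen when its adjusted p was at most 0.05 with the block. The fit without the block was the one planned, and the block was its alternative. Of the 19 genes said to have risen, 3 passed in both fits. In these bulk samples a change in the share of cells that express a gene and a change in its RNA per cell cannot be told apart.

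The median log2 fold change of the 29 genes in NH4Cl against control was 0.224, beside 8.41e-05 over all genes tested. Taken within replicate numbers it was 0.213, 0.254 and 0.224, and without replicate 3 it was 0.225. In 21 of 29 genes the NH4Cl library was above the control library in 3 of 3 same-number pairs, beside 26.4% of all genes tested. The heat map of ratios to the control of the same number shows these pairs. All 3 NH4Cl libraries lay above all 3 control libraries for 13 of 29 genes, beside 9.58% of all genes. The unadjusted p was under 0.05 for 12 genes without the block and 20 with it, beside 10.8% (1333) and 29% (3585) of all genes tested. Fold changes on the log2(FPKM + 1) scale understate differences of genes with low FPKM, such as SOAT1, the lowest of the 29.

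**Figure D2:**
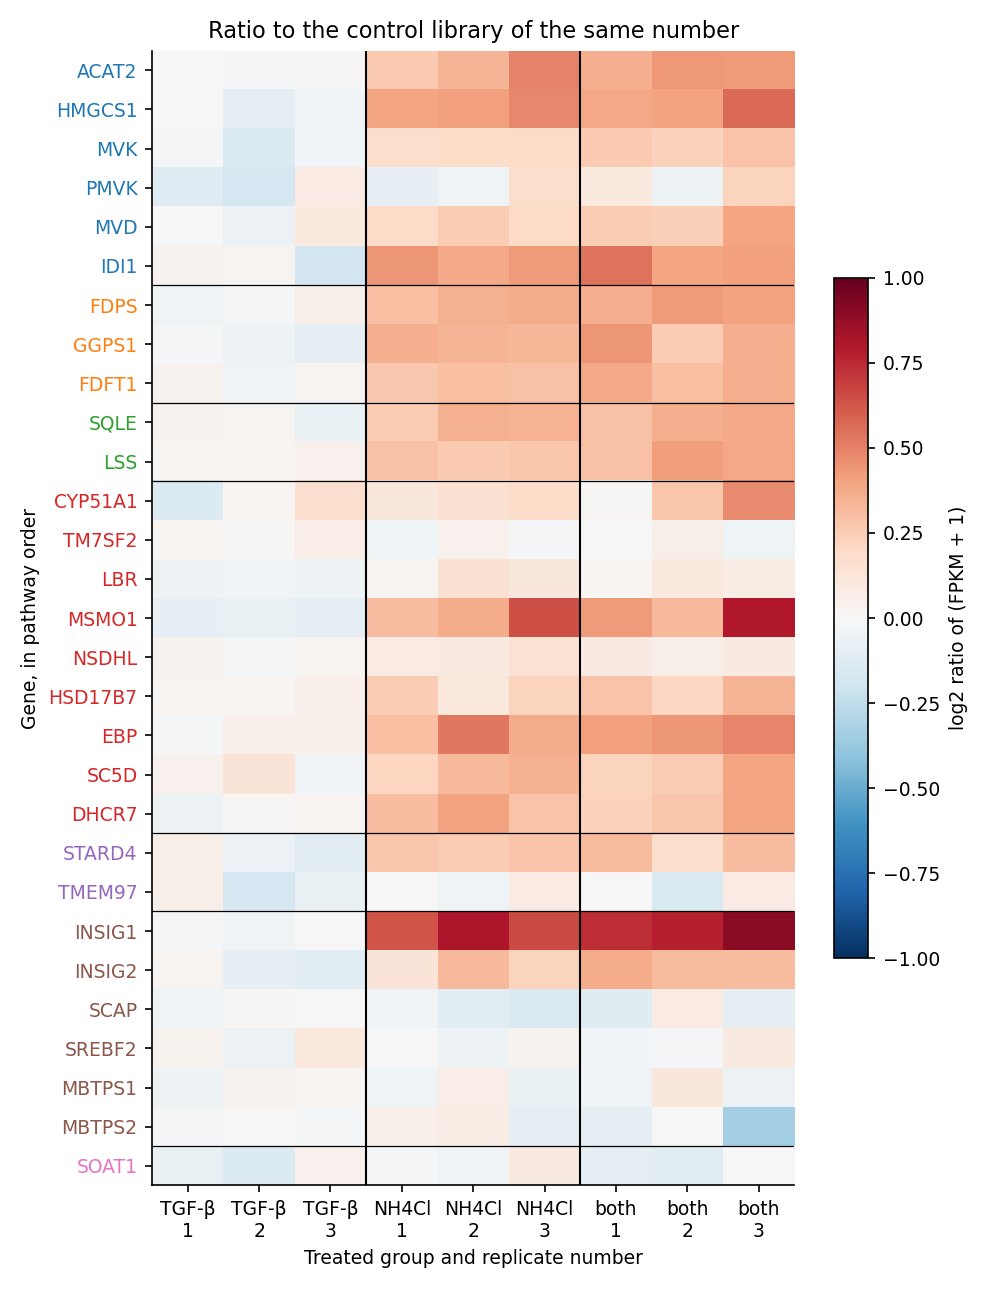
Log2 ratio of (FPKM + 1) in each of the 9 treated libraries to the control library of the same replicate number (columns), for the 29 genes in pathway order (rows; label colors and lines separate roles, and "both" is NH4Cl plus TGF-β). The NH4Cl and NH4Cl plus TGF-β columns are higher for most enzymes and for INSIG1 and INSIG2, and close to 0 for SREBF2 and MBTPS1, while MBTPS2 is at -0.34 in replicate 3 of NH4Cl plus TGF-β.

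Cells given NH4Cl before TGF-β were compared with cells given TGF-β alone, groups that share no library with the comparison of NH4Cl and control. Both comparisons came from the same fit of all 12 libraries, which shares its estimate of spread and its block terms. Their calls are therefore not independent. Most of the same enzymes and both INSIG genes were higher here too: 19 of 29 genes rose and 0 fell with the block, against 10.3% of all genes that rose and 8.48% that fell. Without the block 4 of 29 passed (ACAT2, MVK, GGPS1 and DHCR7), against 1.03% of all genes, and 17 of 29 passed without replicate 3, beside 8.12% of all genes that were higher. The median over the 29 genes was 0.302, beside -5.71e-05 over all genes, and 22 of 29 were higher in 3 of 3 pairs, beside 25.2% of all genes. All 3 libraries lay above all 3 for 15 of 29 genes, beside 8.90% of all genes. The paired fold-change plot sets the 2 comparisons side by side, gene by gene. The genes that rose in both comparisons numbered 18, or 18 of the 19 in each. Of all genes that rose with the block, 77.5% of those in NH4Cl against control and 55.7% of those in NH4Cl plus TGF-β against TGF-β rose in both (710 genes, 5.75% of those tested). NSDHL and CYP51A1 each rose in 1 of the comparisons.

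NH4Cl plus TGF-β was also compared with untreated control, sharing its libraries with the comparisons above. In it 19 of 29 genes rose and 0 fell with the block, against 10.7% of all genes that rose and 7.77% that fell. Without the block 4 of 29 passed (ACAT2, GGPS1, EBP and DHCR7), against 0.948% of all genes. The median log2 fold change of the 29 genes in it was 0.288.

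TGF-β alone left no member past the threshold. In TGF-β against control, 0 of 29 genes passed in the limma fits without and with the block, against 0% and 0.00810% of all genes tested. The unadjusted p was under 0.05 for 0 of 29 in either, beside 0.835% and 3.42% of all genes. Fold changes ran from -0.082 for MSMO1 to 0.048 for SC5D, with a median of -0.00337. In NH4Cl plus TGF-β against NH4Cl, 0 of 29 passed in either limma fit, against 0% and 0.00810% of all genes. The unadjusted count was 0 without the block and 2 with it (LSS and MBTPS2), beside 1.34% and 7.12% of all genes. The test of the interaction, whether the NH4Cl difference itself differed between cells with and without TGF-β, also gave 0 of 29 in both limma fits, against 0% of all genes in each, with unadjusted counts of 0 and 1 (MVK) beside 0.932% and 4.35% of all genes. The exposure to TGF-β lasted 1 h, and levels after longer exposure were not measured. In the histograms of fold changes the 29 genes sit within the bulk of all genes for TGF-β alone and spread to its upper side in both comparisons that add NH4Cl.

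**Figure D3:**
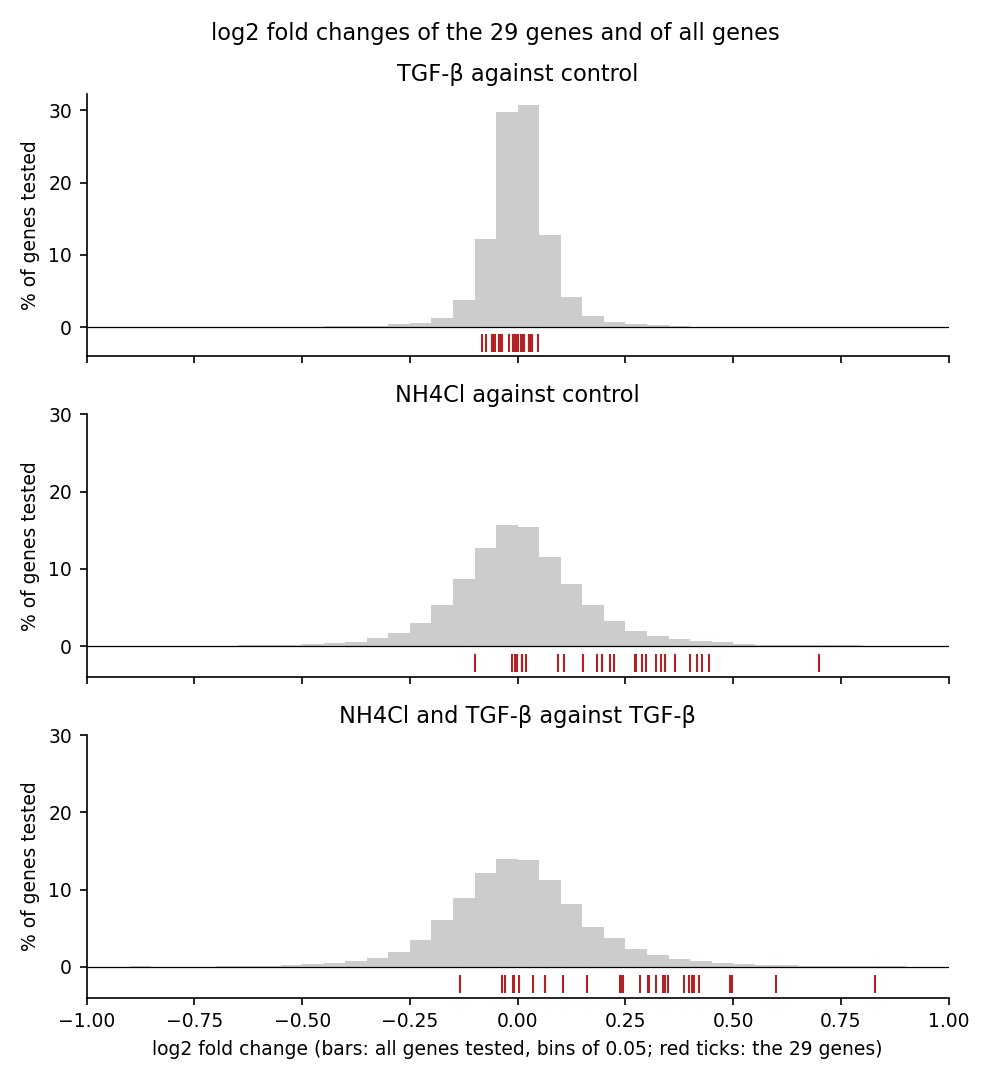
Percent of the 12341 genes tested (gray bars) by log2 fold change in bins of 0.05, shown from -1 to 1, with a red tick for each of the 29 genes, in 3 comparisons. The ticks gather around 0 with TGF-β alone and mostly to the right of 0 in NH4Cl against control and in NH4Cl plus TGF-β against TGF-β, with medians of 0.224 and 0.302.

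**Figure D4:**
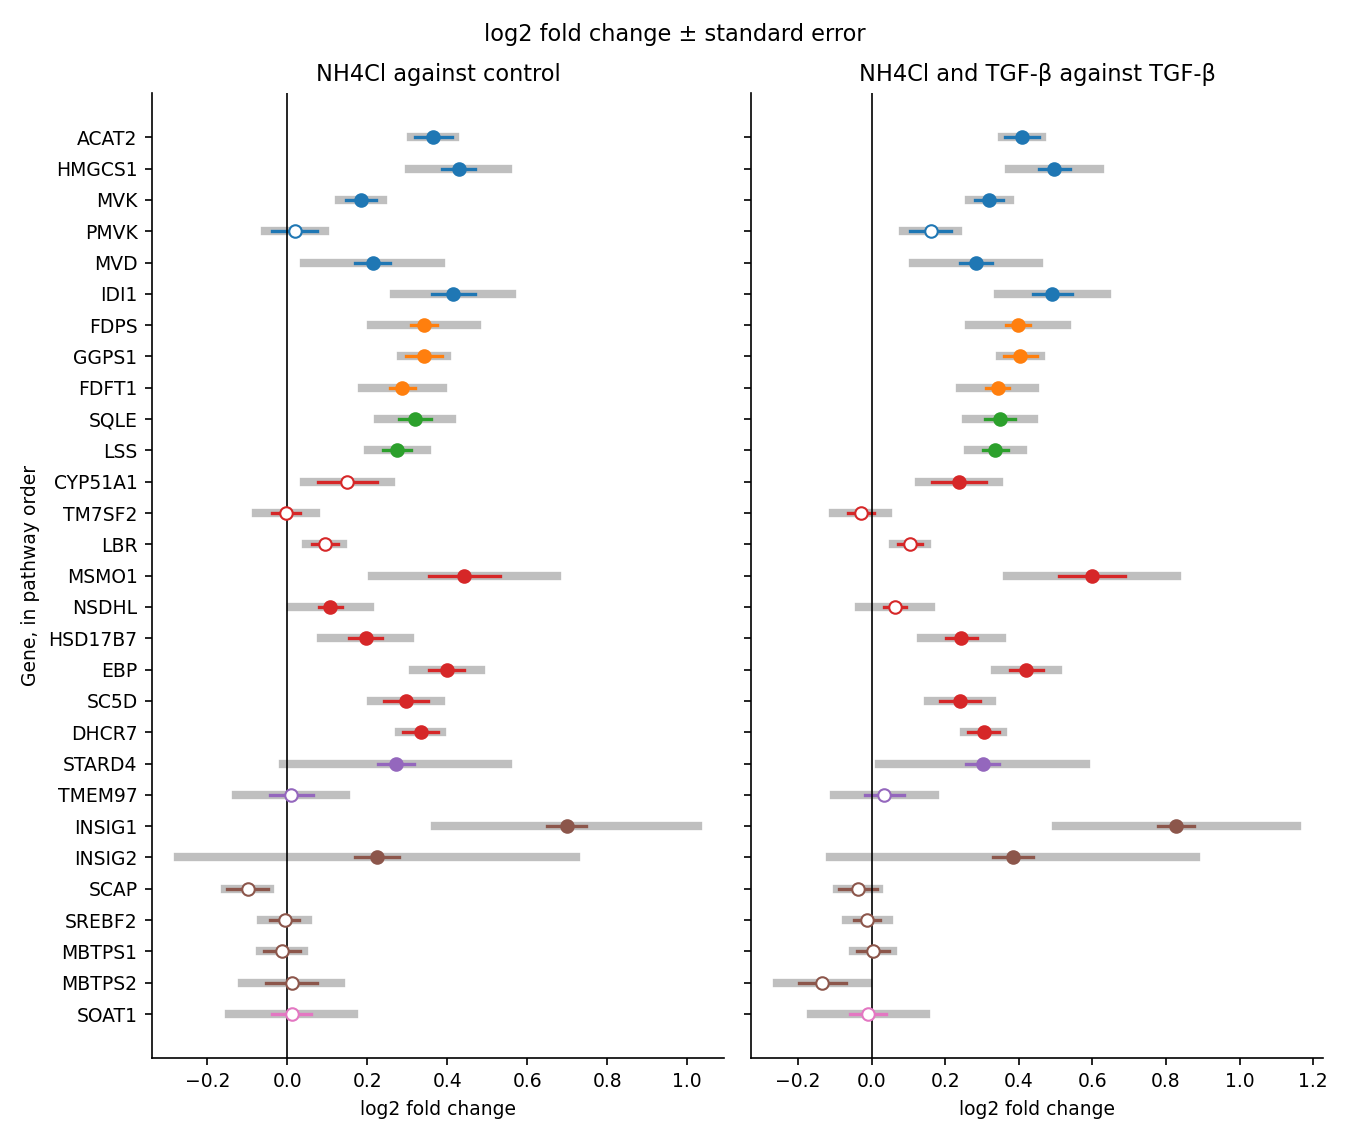
Log2 fold change of each of the 29 genes in NH4Cl against control and in NH4Cl plus TGF-β against TGF-β, from limma on log2(FPKM + 1), in pathway order with colors for roles; colored bars span 1 SE to either side with the replicate block, gray bars the same without it, and filled points passed with the block. INSIG1 lies farthest to the right in both, at 0.70 and 0.83.

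Among the 6 listed enzymes between acetyl-CoA and isopentenyl and dimethylallyl pyrophosphate, 5 rose with NH4Cl and PMVK did not pass the test. ACAT2, the thiolase that joins 2 acetyl-CoA units, measured 45.4, 43.5 and 43.2 FPKM in control replicates 1 to 3 and 54.5, 55.2 and 61.5 FPKM with NH4Cl. With TGF-β alone it measured 45.3, 42.9 and 43.6 FPKM, and with both agents 58.5, 59.0 and 58.4 FPKM. All 6 libraries with NH4Cl lay above all 6 without it. The log2 fold change in NH4Cl against control was 0.37 (SE 0.055, adjusted p = 0.030 without the block and 0.00129 with it), higher in 3 of 3 pairs, a mean FPKM 29.6% above control. In NH4Cl plus TGF-β against TGF-β it was 0.41 (adjusted p = 0.0142 without the block and 0.000551 with it), higher in 3 of 3 pairs. Exons of ACAT2 lie opposite genes on the other strand, and the strand used in counting is not stated. TCP1, at 64.5 FPKM, lies over 9.24% of the ACAT2 exon length. SOD2-OT1, at 0.0224 FPKM, lies over 33.9%, and SOD2, for which no FPKM value was found, over 26.5%.

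HMGCS1, the cytosolic synthase that makes HMG-CoA, was the most abundant of these enzymes per length. It measured 77.5, 78.6 and 89.9 FPKM in control replicates 1 to 3 and 102, 105 and 126 FPKM with NH4Cl. TGF-β alone gave 77.4, 73.3 and 88.1 FPKM, and both agents gave 102, 104 and 134 FPKM. Replicate 3 was the highest library of every group, yet the lowest NH4Cl library was above the highest control library. The log2 fold change was 0.43 with NH4Cl, higher in 3 of 3 pairs, with an adjusted p of 0.185 without the block (SE 0.123), 0.000396 with it (SE 0.042) and 0.00221 without replicate 3. In NH4Cl plus TGF-β against TGF-β it was 0.50, with adjusted p = 0.105 without the block and 0.000165 with it, in 3 of 3 pairs.

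IDI1, which isomerizes isopentenyl pyrophosphate, measured 18.6, 18.6 and 24.6 FPKM in control cells and 25.6, 24.5 and 33.5 FPKM with NH4Cl. The control replicate 3 library overlapped the NH4Cl libraries, and each pair of the same number was higher with NH4Cl. Its log2 fold change was 0.41 (adjusted p = 0.303 without the block and 0.00148 with it), and 0.49 in NH4Cl plus TGF-β against TGF-β (0.172 and 0.000522). MVK and MVD, the mevalonate kinase and the decarboxylase, rose by less, with log2 fold changes of 0.18 (adjusted p = 0.203 and 0.0126 with the block) and 0.21 (0.757 and 0.0121), each higher in 3 of 3 pairs. The MVD groups overlapped at control replicate 3. MVK did not pass without replicate 3 (adjusted p = 0.0538). In cells with TGF-β the MVK difference was 0.32 (0.0351 without the block and 0.000769 with it). PMVK, the kinase between them, had a log2 fold change of 0.019 with an adjusted p of 0.866 with the block, higher in 1 of 3 pairs, and the sign turned to -0.059 without replicate 3. In NH4Cl plus TGF-β against TGF-β it was 0.16, higher in 3 of 3 pairs without overlap of the groups, and did not pass (0.402 and 0.0758).

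All 3 enzymes from prenyl pyrophosphates to squalene and geranylgeranyl pyrophosphate rose, and none of their control libraries reached an NH4Cl library. FDPS, which makes farnesyl pyrophosphate, measured 45.8, 42.5 and 53.2 FPKM in control cells and 56.6, 54.8 and 68.9 FPKM with NH4Cl. GGPS1, which extends that product to geranylgeranyl pyrophosphate, measured 7.83, 8.05 and 8.42 FPKM in control cells and 10.3, 10.4 and 10.8 FPKM with NH4Cl. FDFT1, squalene synthase and the first step used for sterols alone, measured 89.7, 89.7 and 103.6 FPKM and then 108.5, 110.6 and 127.1 FPKM. For FDPS the control replicate 3 library came closest to the NH4Cl range, while the GGPS1 libraries of a group differed little. The log2 fold changes were 0.34 for FDPS (adjusted p = 0.356 without the block and 0.000332 with it), 0.34 for GGPS1 (0.0374 and 0.00150) and 0.29 for FDFT1 (0.301 and 0.000633), each in 3 of 3 pairs. GGPS1 shares 37.3% of its exon length on the same strand with TBCE, which measured 0.836 FPKM.

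The enzymes that close squalene into lanosterol rose as well, 2 of 2. SQLE, the monooxygenase that makes the epoxide, measured 48.5, 45.8 and 53.8 FPKM in control cells and 58.2, 58.9 and 68.8 FPKM with NH4Cl. LSS, the cyclase, measured 46.3, 47.2 and 42.0 FPKM in control cells and 56.8, 56.7 and 51.1 FPKM with NH4Cl. For SQLE replicate 3 was the highest library of both groups and for LSS the lowest, and in neither gene did the groups overlap, as the plots of FPKM by library show for SQLE. The log2 fold changes were 0.32 for SQLE (SE 0.040 with the block, adjusted p = 0.186 without it and 0.00132 with it) and 0.28 for LSS (SE 0.035, 0.161 and 0.00133), each higher in 3 of 3 pairs.

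**Figure D5:**
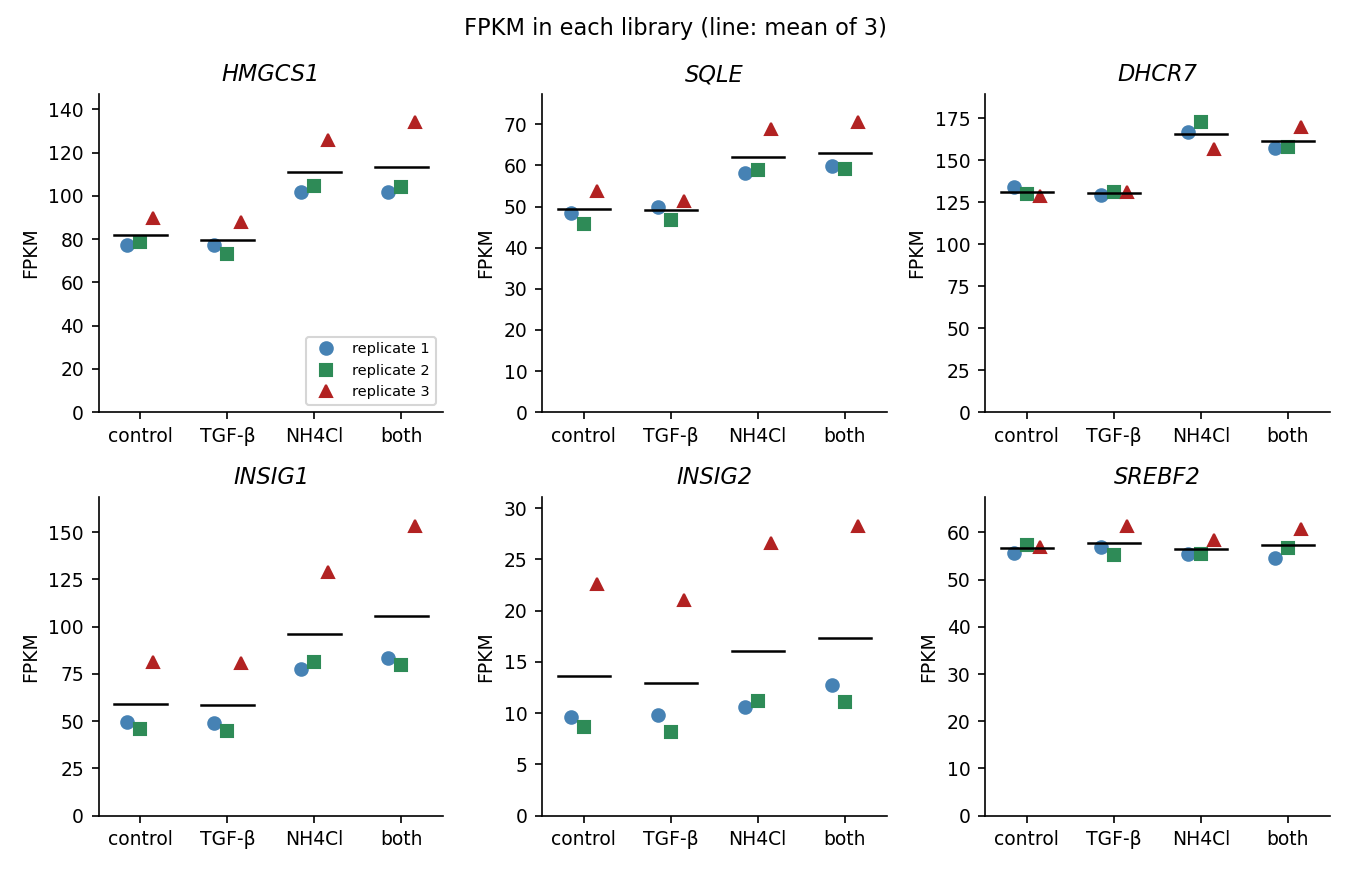
FPKM (vertical axes, from 0) of HMGCS1, SQLE, DHCR7, INSIG1, INSIG2 and SREBF2 in each library, by group ("both" is NH4Cl plus TGF-β), with a marker shape for each replicate number and a line at the mean of 3. INSIG1 and INSIG2 show replicate 3 above the others in all groups, and SREBF2 is level across groups.

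Of the 9 listed enzymes from lanosterol to cholesterol, 6 rose: MSMO1, NSDHL, HSD17B7, EBP, SC5D and DHCR7. DHCR7, the reductase that turns 7-dehydrocholesterol into cholesterol, had the highest mean of the 29 genes at 147 FPKM. It measured 134, 130.0 and 129 FPKM in control cells, 167, 172 and 157 FPKM with NH4Cl, 129.5, 131.2 and 131.1 FPKM with TGF-β, and 157, 158 and 169.6 FPKM with both. All libraries with NH4Cl were above all without it, and replicate 3 was not consistently the highest. Its log2 fold change in NH4Cl against control was 0.33 (SE 0.054, adjusted p = 0.0356 without the block and 0.00149 with it), and in NH4Cl plus TGF-β against TGF-β 0.30 (0.0354 and 0.00172), each in 3 of 3 pairs.

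EBP, the sterol isomerase, measured 91.2, 84.5 and 97.2 FPKM in control cells and 112, 122 and 126 FPKM with NH4Cl. All 3 NH4Cl libraries were above all 3 control libraries, and the log2 fold change was 0.40 (SE 0.086, adjusted p = 0.0839 without the block and 0.000744 with it). MSMO1, which removes the methyl groups at carbon 4 of the ring, measured 35.3, 34.3 and 44.2 FPKM in control cells and 44.0, 44.7 and 69.8 FPKM with NH4Cl. Its replicate 3 libraries were the highest and its groups overlapped at control replicate 3, with per-replicate log2 ratios of 0.31, 0.37 and 0.65. The MSMO1 log2 fold change was 0.44 (SE 0.231, adjusted p = 0.544 without the block, 0.0116 with it), and 0.34 without replicate 3 (0.00843). SC5D, the desaturase before DHCR7, had a log2 fold change of 0.30 (0.195 and 0.00766 with the block), higher in 3 of 3 pairs. In NH4Cl plus TGF-β against TGF-β its log2 fold change was 0.24 (adjusted p = 0.262 without the block and 0.015 with it). Without replicate 3 that difference was 0.15 and did not pass (0.16 without the block and 0.0674 with it).

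HSD17B7, a ketoreductase of the pathway, and NSDHL, the dehydrogenase of the same demethylation complex as MSMO1, changed less. HSD17B7 had a log2 fold change of 0.20 (adjusted p = 0.589 without the block and 0.0147 with it) and NSDHL of 0.11 (0.803 and 0.0380), each higher in 3 of 3 pairs. Neither passed without replicate 3, where the adjusted p was 0.0933 for HSD17B7 and 0.380 for NSDHL. A pseudogene named for the first of these, HSD17B7P2, measured 1.31 FPKM, and whether reads of the 2 were shared was not tested. CYP51A1, the lanosterol demethylase, did not pass with NH4Cl alone (log2 fold change 0.15, adjusted p = 0.718 without the block and 0.212 with it), yet was higher in 3 of 3 pairs. In cells with TGF-β its difference was 0.24 (0.380 and 0.0494), and it did not pass there without replicate 3 (0.0783 without the block and 0.101 with it). It shares 79.4% of its exon length on the same strand with another annotated gene.

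TM7SF2 and LBR encode alternative sterol C14 reductases, and neither passed the test. TM7SF2 measured 33.6, 33.7 and 30.7 FPKM in control cells and 32.7, 34.9 and 30.4 FPKM with NH4Cl. Its log2 fold change was -0.0025 with an adjusted p of 0.973 with the block, higher in 1 of 3 pairs, and the sign differed when each library was scaled to the same sum. LBR, which also anchors heterochromatin at the nuclear envelope, had a log2 fold change of 0.094 (0.0905 with the block), higher in 3 of 3 pairs.

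Of the sterol transport proteins, STARD4 rose with the block and TMEM97 did not pass, and the difference between them was not tested. STARD4, a soluble carrier of cholesterol between membranes, measured 19.2, 20.1 and 32.1 FPKM in control cells and 23.5, 24.1 and 39.2 FPKM with NH4Cl. Control replicate 3 lay above NH4Cl replicates 1 and 2, while the 3 per-replicate log2 ratios were 0.28, 0.25 and 0.28. It rose by a log2 fold change of 0.27 (SE 0.281 without the block, adjusted p = 0.837, SE 0.045 and 0.00471 with it, 0.0157 without replicate 3). TMEM97, an endoplasmic reticulum protein linked to sterol trafficking, had a log2 fold change of 0.010 with an adjusted p of 0.926 with the block. Its sign turned to -0.0044 when each library was centred on its median.

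Among SREBP2 and its regulators, the INSIG genes rose and the other 4 did not pass. INSIG1, the sterol-dependent anchor of SCAP, had the largest fold change of the 29 genes and ranked 46th of 12341 by fold change. It measured 49.8, 45.9 and 81.3 FPKM in control cells, 77.5, 81.0 and 129 FPKM with NH4Cl, 49.2, 44.6 and 80.9 FPKM with TGF-β, and 83.5, 79.6 and 153 FPKM with both. Control replicate 3 reached the level of NH4Cl replicates 1 and 2, so the groups overlapped, while each NH4Cl library was above its control of the same number. The log2 fold change was 0.70, or a mean FPKM 62.5% above control, with per-replicate ratios of 0.63, 0.81 and 0.66. Its adjusted p was 0.485 without the block (SE 0.328), 7.14e-05 with it (SE 0.050) and 0.00121 without replicate 3. In NH4Cl plus TGF-β against TGF-β the log2 fold change was 0.83 (adjusted p = 0.298 without the block and 2.64e-05 with it), in 3 of 3 pairs.

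INSIG2, the related anchor protein's gene, carried the largest replicate 3 shift of the 29 genes. It measured 9.61, 8.70 and 22.6 FPKM in control cells and 10.6, 11.1 and 26.6 FPKM with NH4Cl. The replicate 3 library was more than 1 log2 unit above replicates 1 and 2 in each group, and within numbers the NH4Cl libraries were higher in 3 of 3 pairs. The log2 fold change was 0.22 (adjusted p = 0.957 without the block and 0.0247 with it), and it did not pass without replicate 3 (0.181). Without the block its sign turned when a single library was left out, to -0.012 without control replicate 2 and -0.18 without NH4Cl replicate 3. In cells with TGF-β it was 0.38 (0.822 and 0.00171), and there it passed without replicate 3 as well (0.0418).

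SREBF2, the gene of SREBP2 itself, measured 55.7, 57.3 and 57.0 FPKM in control cells, 55.5, 55.4 and 58.4 FPKM with NH4Cl, 56.9, 55.1 and 61.4 FPKM with TGF-β, and 54.6, 56.7 and 60.6 FPKM with both. The groups overlapped throughout. Its log2 fold change in NH4Cl against control was -0.0068 (SE 0.058, adjusted p = 0.991 without the block and 0.927 with it), higher in 1 of 3 pairs. SCAP, its escort, measured 15.78, 15.29 and 15.96 FPKM in control cells and 15.35, 14.03 and 14.35 FPKM with NH4Cl, lower in 3 of 3 pairs with a log2 fold change of -0.099 that did not pass (0.237 with the block). The proteases that release the active domain gave log2 fold changes of -0.014 for MBTPS1 (0.880 with the block) and 0.011 for MBTPS2 (0.936), and the MBTPS2 sign turned to -0.0040 when libraries were centred on their medians. SOAT1, which esterifies cholesterol for storage and was the lowest of the 29 at a mean of 3.80 FPKM, had a log2 fold change of 0.011 (0.916). Its sign turned to -0.0041 with centred libraries.

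Promoter windows of 300 bases, 250 before and 50 after the start of transcription, were taken from RefSeq (build GRCh38.p14) to see which letters the genes that moved together share. In all 26 of 29 genes were matched, with 34 windows, and ACAT2, FDFT1 and SQLE are named as missing entries. On both strands, the sterol element TCACNCCAC was searched, together with the NF-Y box CCAAT and the E-box CACGTG. The NF-Y box was in 21 of 34 windows (61.8%), beside 34.6% of 35116 windows of all genes, and the E-box in 5 of 34 (14.7%), beside 7.26%. The sterol element was in 1 of 34 (2.94%), that of SREBF2, beside 1.13% of all windows, and the pair of sterol element and NF-Y box in the same 1, beside 0.347%. By window, the NF-Y box was in 17 of 24 windows of the matched genes that rose with NH4Cl. It was in 4 of 10 windows of those that did not pass. By gene, 15 of 16 matched genes that rose had the box, and 4 of 10 that did not pass. Some genes had more than 1 window, and windows of a gene could overlap. The 16 genes that rose had 24 windows and the 10 others had 10, so the former had more places for a match. A share by gene over all genes was not counted. Neither the difference by window nor that by gene was tested. A match describes letters and is neither a bound site nor a cause, and a window without one says only that these letters are not in it.

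INSIG1, MSMO1 and HMGCS1 had the largest fold changes of the 29 in NH4Cl against control over all libraries. Without replicate 3, EBP (0.412) and IDI1 (0.408) were above HMGCS1 (0.401) and MSMO1 (0.341). The window of SREBF2 is shown because it alone holds the sterol element. Those of INSIG1, MSMO1 and HMGCS1 are shown for these fold changes, a choice made after their values were seen. Each runs 5′ to 3′ on the strand of its gene: SREBF2 at chr22:41832855-41833154 on the plus strand, INSIG1 at chr7:155297628-155297927 on the plus strand, MSMO1 at chr4:165327419-165327718 on the plus strand, and HMGCS1 at chr5:43313363-43313662 on the minus strand, 1 of 2 windows of that gene. Capitals mark the sterol element, NF-Y boxes (CCAAT, or ATTGG where the box is on the other strand) and the E-box.
SREBF2: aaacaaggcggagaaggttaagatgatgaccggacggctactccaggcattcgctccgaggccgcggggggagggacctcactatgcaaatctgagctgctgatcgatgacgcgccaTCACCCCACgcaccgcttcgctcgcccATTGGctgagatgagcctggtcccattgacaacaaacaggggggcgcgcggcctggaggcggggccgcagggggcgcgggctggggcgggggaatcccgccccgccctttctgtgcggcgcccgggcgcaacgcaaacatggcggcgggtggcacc
INSIG1: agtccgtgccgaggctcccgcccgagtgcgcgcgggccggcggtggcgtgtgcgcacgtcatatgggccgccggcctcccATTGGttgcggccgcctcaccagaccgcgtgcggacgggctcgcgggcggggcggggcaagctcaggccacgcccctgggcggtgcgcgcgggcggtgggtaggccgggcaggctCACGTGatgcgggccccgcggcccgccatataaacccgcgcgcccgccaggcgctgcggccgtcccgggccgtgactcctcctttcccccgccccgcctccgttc
MSMO1: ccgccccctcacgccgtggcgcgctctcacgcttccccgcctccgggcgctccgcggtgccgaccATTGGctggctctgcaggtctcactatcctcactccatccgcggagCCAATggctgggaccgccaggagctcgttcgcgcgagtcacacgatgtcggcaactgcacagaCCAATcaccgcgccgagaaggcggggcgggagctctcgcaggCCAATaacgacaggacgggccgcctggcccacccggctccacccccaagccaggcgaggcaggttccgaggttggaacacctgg
HMGCS1: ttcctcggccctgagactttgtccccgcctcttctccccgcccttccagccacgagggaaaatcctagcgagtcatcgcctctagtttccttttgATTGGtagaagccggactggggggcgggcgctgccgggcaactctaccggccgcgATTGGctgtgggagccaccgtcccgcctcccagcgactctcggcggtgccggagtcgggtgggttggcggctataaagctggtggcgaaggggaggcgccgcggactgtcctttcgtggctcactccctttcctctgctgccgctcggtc
In SREBF2 124 bases lie between the end of the sterol element and the start of transcription, with an NF-Y box 18 bases past the end of the element. INSIG1 has 1 NF-Y box and an E-box that ends 49 bases before the start, MSMO1 has 4 NF-Y boxes and HMGCS1 has 2.

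Other genes around the pathway were counted in lists of their own, with the 3 largest fold changes of each list named. Of 12 genes of fatty acid synthesis under SREBP1, 9 rose with NH4Cl with the block, against 7.42% of all genes, and the median was 0.251. Without the block 0 passed in limma, against 0.381% of all genes, and the unadjusted p was under 0.05 for 7, beside 10.8%. Without replicate 3 the count was 6 without the block and 7 with it, all higher, beside 682 and 630 of 12341 genes that were higher in these fits. ACSS2, which makes acetyl-CoA from acetate, measured 31.3, 31.7 and 53.3 FPKM in control cells and 58.6, 59.8 and 102.1 FPKM with NH4Cl, a log2 fold change of 0.90 (adjusted p = 0.367 without the block and 2.09e-05 with it) in 3 of 3 pairs. Its lowest NH4Cl library was above its highest control library, that of replicate 3. SCD, the stearoyl-CoA desaturase, and ACLY, ATP citrate lyase, had log2 fold changes of 0.45 (0.364 and 0.000131) and 0.30 (0.201 and 0.00226), each in 3 of 3 pairs.

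Of 12 tested genes that handle cholesterol, 5 rose with the block, against 7.42% of all genes, and 1 passed without it, against 0.381%, with a median of 0.139. Without replicate 3 it was 3 without the block and 2 with it, all higher, beside the same 682 and 630 of all genes. NPC2, which carries cholesterol out of the lysosome lumen, measured 12.7, 12.6 and 15.7 FPKM in control cells and 20.1, 20.6 and 21.4 FPKM with NH4Cl, a log2 fold change of 0.57 (adjusted p = 0.0432 without the block and 0.000387 with it) in 3 of 3 pairs. The groups did not overlap. GRAMD1B, which moves sterol from the plasma membrane, had a log2 fold change of 0.32 (0.256 and 0.0344) and LIPA, the lysosomal acid lipase, of 0.20 (0.790 and 0.0430), each in 3 of 3 pairs.

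The branch of the mevalonate pathway that does not lead to sterols was counted over 14 genes, with a median of -0.077. GGPS1, whose product also lies off the sterol route, was counted among the 29 genes and not in this list. It rose with NH4Cl, with a log2 fold change of 0.34 (adjusted p = 0.0374 without the block and 0.00150 with it in limma). With the block 0 rose and 1 fell, against 7.42% of all genes that rose and 6.14% that fell, and without replicate 3 the number lower was 2 without the block and 3 with it, beside 611 and 517 of 12341 genes. RABGGTB, a subunit of Rab geranylgeranyl transferase, fell, with a log2 fold change of -0.18 (adjusted p = 0.757 without the block and 0.0329 with it), lower in 3 of 3 pairs. PDSS1 of ubiquinone synthesis and ZMPSTE24, a protease of prenylated proteins, had log2 fold changes of -0.24 (0.0622 with the block) and -0.17 (0.222). Of 9 factors of SREBP cleavage and of sterol-regulated degradation, 0 passed in NH4Cl against control in limma without or with the block, against 47 and 1674 of 12341 genes, and the median was 0.021. The unadjusted counts were 0 and 1, beside 1333 and 3585 of all genes. ERLIN1, PAQR3 and VCP gave log2 fold changes of 0.11 (adjusted p = 0.280 with the block), 0.086 (0.485) and -0.091 (0.0821). VCP fell with the block in NH4Cl plus TGF-β against control, with a log2 fold change of -0.10 (0.807 without the block and 0.0426 with it), and did not pass without replicate 3 (0.179 and 0.203). The difference between these lists and the 29 genes was not tested.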

How the data were processed

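Expression was measured by RNA sequencing of 12 HCT116 libraries, and the deposited values are FPKM, per library as the authors computed them, with read counts per gene beside them. The submitters' processing notes name Trimmomatic 0.36, STAR 2.5.2b, featureCounts with Subread 1.5.2 and DESeq2 on GRCh38. The methods of the publication name HTSeq for counting, and which tool made the deposited values was not settled. Coordinates and overlaps come from GENCODE 29. From the FPKM, log2(FPKM + 1) was fitted in limma 3.58.1 (R 4.3.3) for genes with a mean of at least 1 FPKM, with 4 group means, a variance trend on intensity and Benjamini-Hochberg adjustment over the 12341 genes tested, two-sided, at 0.05. An alternative fit added the replicate number as a block. The pairing by replicate number comes from the titles of the libraries and was checked once: after group means were removed, libraries of the same number correlated in 18 of 18 pairs (r from 0.349 to 0.774, across genes, which are not independent replicates). That check rests on replicate 3: replicates 1 and 2 of different groups correlated as well (r from 0.341 to 0.486), replicate 3 with either from -0.655 to -0.464, and the differences of replicate 1 from replicate 2 correlated between groups at r of 0.0829 or less. A fit with replicate 3 against replicates 1 and 2 as the block was added after the results were seen. Summaries and plots used Python 3.11.15, numpy 2.4.6, pandas 2.3.3 and matplotlib 3.10.9.

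All 29 listed genes are named, in pathway order, with the 3 largest fold changes in NH4Cl against control of each companion list: SREBP cleavage and sterol degradation, the non-sterol branch, cholesterol handling, and fatty acid synthesis. Marker lists covered colon epithelium, fibroblasts, leukocytes and endothelium. The members and lists were chosen with earlier results of these data known. Alternatives were a pseudocount of 0.1, no filter or a minimum mean of 5 FPKM, equal sums per library, libraries centred on their medians, only the compared groups, no intensity trend, each library left out in turn and no replicate 3, each also with the block. Some items are not reported.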

Additional observations from a re-analysis of the deposited data

Results flagged for a closer look

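For MVK, which was called higher with NH4Cl, the effect of TGF-β pointed in opposite directions without and with NH4Cl. Without NH4Cl the TGF-β library was below control in 3 of 3 same-number pairs, and with NH4Cl it was above in 3 of 3. The effects differed by 0.136 on the log2 scale, and limma's test of that interaction gave an adjusted p of 1 without the replicate block and 0.992 with it, so the difference did not pass.

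RABGGTB showed the same pattern, lower with TGF-β in 3 of 3 pairs without NH4Cl and higher in 3 of 3 with it. The effects differed by 0.174, and the interaction gave an adjusted p of 1 without the block and 0.992 with it.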

How the results depend on the processing

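In the limma fit without the replicate block, the counts of genes past the threshold were 3 in NH4Cl against control, 4 in NH4Cl plus TGF-β against control and 4 in NH4Cl plus TGF-β against TGF-β, and each became 19 with the block. With replicate 3 against replicates 1 and 2 as the block, an alternative chosen after seeing the data, they were 18, 19 and 20. Without a filter on FPKM, which raises the number of genes tested, the first and second counts were 1 and 2. With only the compared groups in the model, which leaves fewer libraries to estimate spread, all 3 counts were 0. Leaving out libraries gave 0 to 15, 0 to 17 and 0 to 17, the highest values coming without replicate 3 in every group, and fewer libraries also leave fewer degrees of freedom. With 1 library out the counts were at most 3, 5 and 4. In NH4Cl against control the count was 0 without any 1 control library, TGF-β replicate 1 or 2, NH4Cl replicate 1 or 2 or NH4Cl plus TGF-β replicate 1, and 1 without NH4Cl replicate 3 or NH4Cl plus TGF-β replicate 2. In NH4Cl plus TGF-β against control it was 0 without replicate 1 or 2 of either group, 1 without replicate 1 or 2 of TGF-β or NH4Cl or replicate 3 of NH4Cl plus TGF-β, and 2 without control replicate 3. Against TGF-β it was 0 without TGF-β replicate 1 or 2 or NH4Cl plus TGF-β replicate 1, 1 without NH4Cl plus TGF-β replicate 2, and 2 without replicate 1 or 2 of control or NH4Cl or replicate 3 of NH4Cl plus TGF-β. With the block, the counts ran from 13 (without control replicate 3) to 20 over every alternative. TGF-β against control, NH4Cl plus TGF-β against NH4Cl and the interaction gave 0 under every alternative. The median log2 fold change of the 29 genes in NH4Cl against control was 0.22, became 0.25 over 28 genes at a mean of at least 5 FPKM, which drops SOAT1 and changes no fold change, and ran from 0.16 without NH4Cl replicate 3 to 0.32 without control replicate 3. Of the 29 genes, 24 to 29 kept their direction, 24 without replicate 3 (28 of 28 at a mean of at least 5 FPKM). The sign turned for genes near 0: TM7SF2 gave 0.0014 with libraries scaled to the same sum, and TMEM97, MBTPS2 and SOAT1 gave -0.0044, -0.0040 and -0.0041 with libraries centred on their medians. With libraries left out, log2 fold changes ran from -0.059 to 0.072 for PMVK, -0.050 to 0.047 for TM7SF2, -0.11 to 0.096 for TMEM97, -0.18 to 0.63 for INSIG2, -0.032 to 0.0064 for SREBF2, -0.050 to 0.019 for MBTPS1, -0.041 to 0.11 for MBTPS2, -0.14 to 0.12 for SOAT1 and -0.17 to 3.58e-05 for VCP. INSIG2 turned negative without control replicate 2 or NH4Cl replicate 3 in the fit without the block. In that fit, the fold changes of STARD4, MSMO1 and MVD without NH4Cl replicate 3 were well below those with all libraries. That of NSDHL was well below without control replicate 3, and none of these signs turned. Where no construction is named, the cause was not tested.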
